A study of Mus musculus with 31 samples.

Results

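Genes of the brain's blood vessels were followed over 31 mouse arrays. The set holds 10 genes: Cldn5, Pecam1, Slc2a1, Abcb1a, Flt1, Tek, Kdr, Cdh5, Mfsd2a and Ocln. They were chosen by name, together with every probe set annotated to those symbols alone. This gave 18 of the 45101 probe sets on the array and 10 of the 18193 genes that the annotation names. Slc2a1 had 3 probe sets and Flt1 had 4, while Abcb1a, Cdh5 and Ocln had 2 each. RefSeq (GRCm38.p6) places the 3 genes that passed a comparison on chromosome 5 from 8567091 to 8748575 (Abcb1a), chromosome 11 from 106654213 to 106715281 (Pecam1) and chromosome 8 from 104101613 to 104144504 (Cdh5).

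The capillaries of the brain are lined by endothelial cells that are sealed to each other and move substances in and out through dedicated carriers, which together form the blood-brain barrier. Claudin-5 (Cldn5) and occludin (Ocln) are strands of the tight junction, whereas VE-cadherin (Cdh5) and PECAM-1 (Pecam1) join endothelial cells to each other in vessels of all organs. Slc2a1 encodes the glucose carrier GLUT1, Mfsd2a a lipid carrier that holds down vesicle transport across the cell, and Abcb1a the efflux pump P-glycoprotein. Flt1 and Kdr are receptors for vascular endothelial growth factors (VEGF), and Tek is the receptor for angiopoietins.

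The study was designed to compare natural and in vitro induced regulatory T cells (Treg), CD4+ T cells whose identity depends on the transcription factor Foxp3. All cells came from spleens and lymph nodes, and total RNA was hybridised to 1-colour Affymetrix arrays after biotin labelling. The 10 label groups came from Foxp3/EGFP bicistronic mice, which mark Foxp3 expression with EGFP, or from Foxp3deltaEGFP mice, which carry a mutant Foxp3 allele with EGFP. The bicistronic mice gave induced Treg (5 arrays), made from reporter-negative T cells in 3 days with antibodies to CD3 and CD28 plus TGF-beta. They also gave failed induced Treg (3 arrays), the cells of those cultures that stayed reporter negative, and activated T cells (4 arrays), which met the antibodies without TGF-beta. Activated natural Treg (3 arrays) were reporter-positive cells given the antibodies and TGF-beta, and natural Treg (4 arrays) and conventional CD4+ T cells (3 arrays) were taken without activation. Mutant males gave the cells for induced Foxp3deltaEGFP+ cells (3 arrays), treated like induced Treg, and heterozygous females gave natural Foxp3deltaEGFP+ cells (2 arrays). Induced Treg and induced Foxp3deltaEGFP+ cells cultured for a further week in IL-2 at 100 units/ml made up the last groups (2 arrays each). No label gives the age of the mice or says that arrays of a group came from separate animals or cultures, so the p-values reflect spread among arrays only, which may be technical.

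The measured RNA went against the T cell labels, and groups are therefore called by their labels only. Levels are given here as the percentile of a gene's brightest probe set among all 45101 probe sets of the array, and marker lists as the median over their genes. Markers of neurons, oligodendrocytes and astrocytes lay at percentiles 99.5, 99.5 and 99.1, whereas the 11 measured T cell markers had a median of 26.2 and all 11 lay under percentile 50. Foxp3 itself had a normalised intensity between 9.59 and 16.9 on all 31 arrays, close to the bacterial control probe sets (15 probe sets, median 8.78, 95th percentile 16.1). Whether its probes lie inside the part altered in the mutant allele was not analysed here. The arrays also fell into 3 sets by their spiked control ratio, median and 99th percentile (15, 6 and 10 arrays), and median deposited intensity ran from 22.2 to 55.4 per array. All 3 unactivated conventional T arrays and all 4 natural Treg arrays lay in set 1, and no array of activated T cells or activated natural Treg did. The number of arrays per group limits the precision of every value below.

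Upstream sequence was looked at because endothelial genes are commonly driven by ETS-family factors, whose core site was searched as AGGAAG or, on the other strand, CTTCCT. RefSeq (GRCm38.p6) sequences of the 250 bases before the start were at hand for 8 of the 10 genes, as 9 promoters. Abcb1a and Flt1 had the site, each in 2 copies, and 29.5% of all 32851 promoters of that length held it. The promoters of these genes and of Cldn5, which lacked it in this window, are printed 5′ to 3′ with the site in capitals. They lie at chr5:8566841-8567090 (+ strand, Abcb1a), chr5:147726012-147726261 (− strand, Flt1) and chr16:18776597-18776846 (+ strand, Cldn5).
Abcb1a: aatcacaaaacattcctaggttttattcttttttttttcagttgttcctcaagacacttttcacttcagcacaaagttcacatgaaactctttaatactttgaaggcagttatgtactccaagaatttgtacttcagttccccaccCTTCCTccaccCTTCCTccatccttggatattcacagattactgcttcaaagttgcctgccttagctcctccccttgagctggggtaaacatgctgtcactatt
Flt1: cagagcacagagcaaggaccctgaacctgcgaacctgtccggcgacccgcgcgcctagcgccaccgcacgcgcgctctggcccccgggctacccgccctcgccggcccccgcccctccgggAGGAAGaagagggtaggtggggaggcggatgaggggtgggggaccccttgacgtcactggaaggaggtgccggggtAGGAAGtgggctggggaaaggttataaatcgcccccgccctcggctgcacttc
Cldn5: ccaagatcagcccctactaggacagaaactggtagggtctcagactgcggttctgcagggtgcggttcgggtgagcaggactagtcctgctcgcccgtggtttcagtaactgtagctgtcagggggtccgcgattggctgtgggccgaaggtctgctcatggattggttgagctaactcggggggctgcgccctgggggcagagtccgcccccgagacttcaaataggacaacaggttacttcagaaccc
The copies began 104 and 93 bases before the start in Abcb1a, on the other strand, and 129 and 53 bases before it in Flt1. A Sp/KLF core (GGGCGG or CCGCCC) stood in 6 of the 9 promoters, 2 of them overlapping windows of Ocln, against 32.7% of all promoters. Those 6 held from 59.6% (Cldn5) to 70.4% (Flt1) G and C, against a median of 52.4% over all promoters. A SOX core (ACAATG or CATTGT) stood in 0 of 9, against 10.7%. A match describes these letters only.

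The 10 genes were measurable on these arrays, with 9 of 10 lying above the middle of the array on average. The carriers were bright: Slc2a1 lay at percentile 96.0 (SD 0.203, n = 31 arrays), Mfsd2a at 84.9 (SD 1.11) and the efflux pump Abcb1a at 82.2 (SD 3.07). Of the tight junction genes, Cldn5 lay at 89.6 (SD 1.35) and Ocln at 59.6 (SD 1.41). The growth factor receptors lay at 82.4 (SD 2.24) for Flt1, 76.3 (SD 1.90) for Kdr and 71.4 (SD 1.89) for Tek. The pan-endothelial adhesion genes were the dimmest, with Pecam1 at 55.6 (SD 3.77) and Cdh5 at 49.2 (SD 4.07). In deposited intensity, Slc2a1 averaged 1703 (SD 448, n = 31), Cldn5 684 (SD 189), Kdr 230 (SD 51.5) and Cdh5 38.0 (SD 8.23). Probe sets differ in how brightly they bind, so these percentiles describe probe sets and do not rank transcripts. In bulk RNA, fewer endothelial cells and less RNA per cell cannot be told apart.

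**Figure D1:**
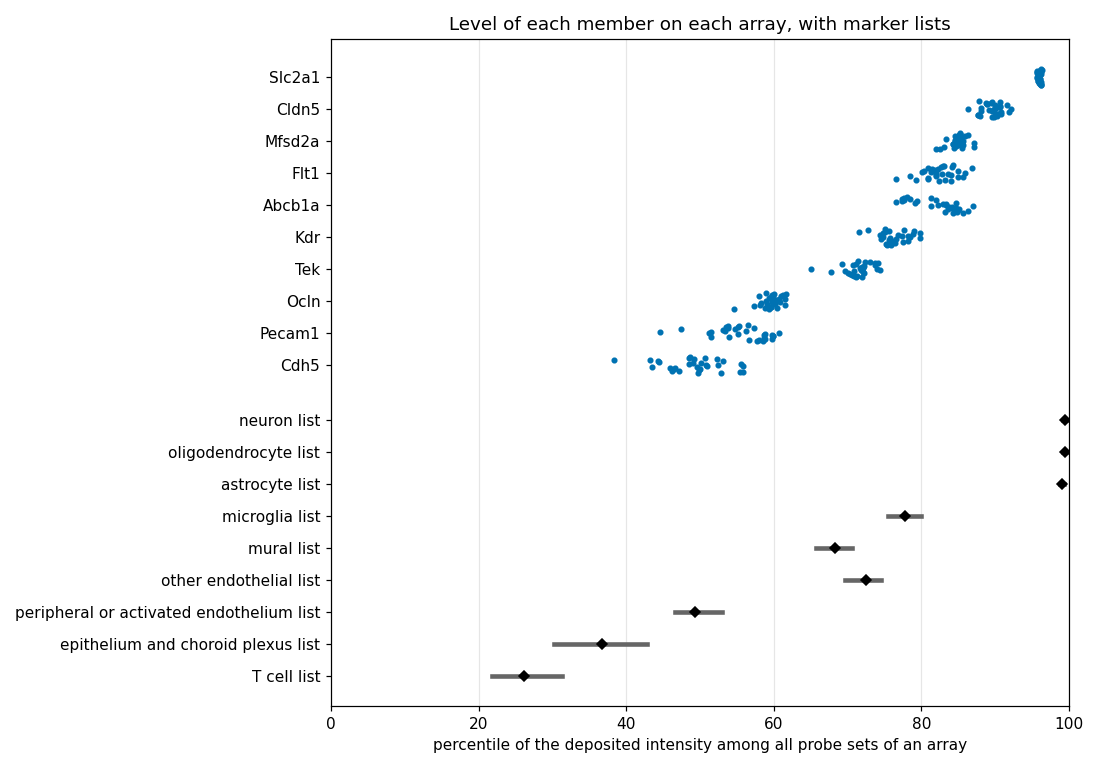
Percentile of the deposited intensity among all probe sets of an array (x axis) for each of the 10 genes (1 blue point per array, 31 arrays, brightest probe set of each gene) and for marker lists (black diamond, mean over arrays of the list's median; grey bar, lowest to highest array). The 10 genes run from 96.0 for Slc2a1 down to 49.2 for Cdh5, below the neuron list at 99.5 and, with Cdh5 also, above the T cell list at 26.2.

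Gene lists around the same vessels gave a like picture of level. The median over the 10 genes was at percentile 78.4 (75.2 to 81.7 over arrays). The 11 other barrier carriers had a median of 87.2, from Slc38a5 at 65.2 to Bsg at 99.5, and the 9 measured junction genes one of 79.4, from Marveld2 at 20.1 to Ctnnb1 at 99.4. The 12 measured genes of endothelial cells at large, from Robo4 at 52.9 to Itm2a at 97.5, had a median of 72.4. The VEGF and angiopoietin genes stood at 69.6, the endothelial transcription and signalling regulators at 55.7, and the mural (pericyte and smooth muscle) genes at 68.3. Genes of peripheral or activated endothelium stood at 49.4, from E-selectin (Sele), an adhesion molecule of inflamed vessels, at 8.7 to Ackr1 at 91.7. Of these 10 genes, 5 lay under percentile 50. Markers of other cells that make some of the 10 genes were dimmer or mixed: epithelium and choroid plexus at 36.7 (7 of 7 under percentile 50) and platelet or blood leukocyte genes at 56.1. Microglia markers stood at 77.8. Among 5 paralogs, with a median of 47.6, Abcb1b, the near relative of Abcb1a, stood at 31.6. Of the 5, 3 lay under percentile 50, while Slc2a3 stood at 95.5 and Cldn11 at 96.5.

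Across arrays the members differed in how much they varied. For this and all later comparisons the arrays were quantile normalised and values are log2(intensity + 16), so fold changes of dim genes are understated. Slc2a1 varied least, with an SD of 0.07 on that scale, and only 2.82% of the 12169 tested genes had a smaller one. Abcb1a varied most (SD 0.31, larger than 96.8% of tested genes), followed by Pecam1 (SD 0.26), Cdh5 (SD 0.23) and Flt1 (SD 0.23). Cldn5, Kdr and Tek had SDs of 0.20, 0.18 and 0.17, and Mfsd2a and Ocln 0.12 and 0.11, against a median of 0.16 over tested genes.

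**Figure D2:**
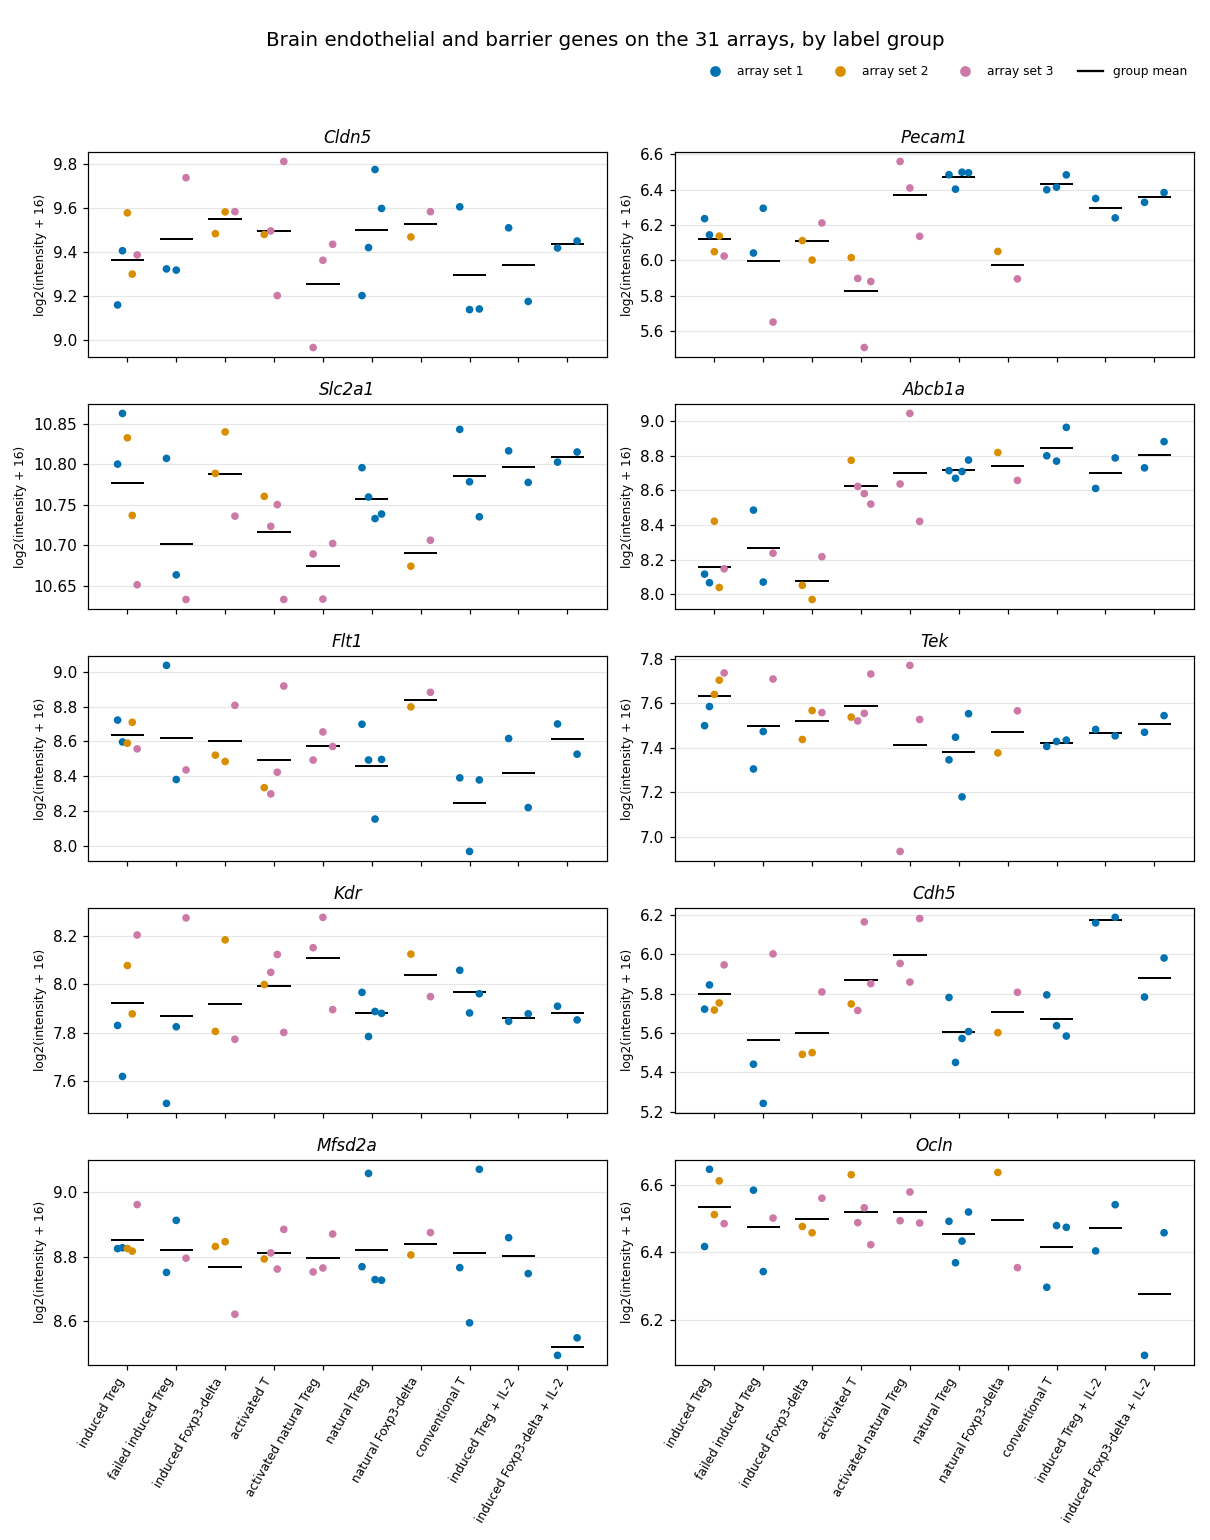
Normalised log2(intensity + 16) of each gene (1 panel per gene, y axes differ) by label group (x axis). Each point is 1 of the 31 arrays, coloured by array set, and black lines are group means; Abcb1a is low in the 3 leftmost groups and Pecam1 is lowest in activated T arrays.

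Abcb1a (adjusted p = 0.000505) and Pecam1 (adjusted p = 0.00391) differed between label groups over all arrays, by limma's moderated F test with Benjamini-Hochberg adjustment over all tested genes. The same test called 13.6% of tested genes, so 2 of 10 is near that background. Cdh5 missed the threshold (adjusted p = 0.0576), and the other 7 had adjusted p of 0.333 or more. Label groups accounted for 82.1% of the variance of Abcb1a and 73.3% of that of Pecam1, against a median of 41.1% over tested genes and 30% for random groups. The array sets accounted for 10.5% of the variance of Abcb1a but 38.7% of that of Pecam1 and 44.9% of that of Slc2a1 (median of tested genes 24.2%).

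Abcb1a, the P-glycoprotein pump, was low on the arrays labelled as 3-day TGF-beta inductions without the further week in IL-2. Its normalised intensity was 261, 252, 327, 247 and 267 in induced Treg, 342, 253 and 286 in failed induced Treg, and 249, 235 and 281 in induced Foxp3deltaEGFP+ arrays. On the 20 arrays of the other 7 labels it ran from 327 to 511 with a median of 406, and 2 of the 11 low-group arrays reached the lowest of these. The other 7 labels include the 2 groups that were induced in the same way and then cultured in IL-2. These read 375 and 425 for induced Treg and 408 and 455 for induced Foxp3deltaEGFP+ arrays. The activated natural Treg label also names TGF-beta, and its arrays read 382, 511 and 327. This grouping was noticed in the values, so it is a description with no test.

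After the further week in IL-2, the Abcb1a value of induced Treg arrays was higher. The IL-2 arrays read 375 and 425, both above the 5 induced Treg arrays. The difference was 0.54 on the log2 scale (SE 0.13, 95% interval 0.28 to 0.80, 1.45-fold, limma adjusted p = 0.0251). Abcb1a was the 1 member of 10 called in this comparison, where 2.15% of tested genes were called (1.01% higher, 1.14% lower). Pecam1, Cdh5 and Tek also did not overlap between these groups, as Abcb1a did not, and neither did 24.4% of tested genes. Within array set 1, which held 2 arrays of each label, the difference was 0.61, and with the array sets as a block it was 0.58 (adjusted p = 0.0399). The call was lost without induced Treg replicate 4 (0.51, adjusted p = 0.0545), without IL-2 replicate 1 (0.63, adjusted p = 0.163) or without IL-2 replicate 2 (0.45, adjusted p = 0.313). It was also lost with scaling by array medians (0.39, adjusted p = 0.0928) and on the values as deposited (0.21, adjusted p = 0.576). The summed intensity of the junction list was lower on the IL-2 arrays (8434 to 8720 against 9104 to 10778), also without its brightest gene Ctnnb1 (2374 to 2668 against 2949 to 3478). Of 6 microglia markers 1, Cx3cr1, was lower there (−0.41, limma adjusted p = 0.0413), while the 6 summed to 3331 to 3393 against 3089 to 3496. The part of these in the result was not tested.

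Against activated T arrays, Abcb1a was 0.47 lower in induced Treg (SE 0.10, limma adjusted p = 0.0739), which missed the threshold. The activated T arrays read 421, 378, 367 and 351, all above the induced Treg values. Within array set 2 the difference was −0.54 (2 arrays against 1) and within set 3 it was −0.43 (1 against 3). Without induced Treg replicate 3 the difference was −0.53 with an adjusted p of 0.0447 by limma. On the values as deposited it was 0.0107, where the median tested gene differed by 0.45. No member passed the test here, where 0.0493% of all tested genes did (0.0411% higher, 0.00822% lower). Abcb1a and Pecam1 did not overlap between these groups, as 1.92% of tested genes did not.

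The second Abcb1a probe set, 1419758_at, did not show this pattern. Its normalised intensity ran from 79.6 to 161 on the 11 arrays of the 3 induction labels and from 83.8 to 156 on the other 20. Over the 31 arrays the 2 probe sets correlated at r = 0.10 (permutation p = 0.589, rho = 0.09). Both are annotated to the same transcript record. In the IL-2 comparison 1419758_at differed by −0.19 (limma adjusted p = 0.738), opposite in sign to the 0.54 of 1419759_at. With the mean of the probe sets the IL-2 difference was 0.17 (limma adjusted p = 0.607).

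**Figure D3:**
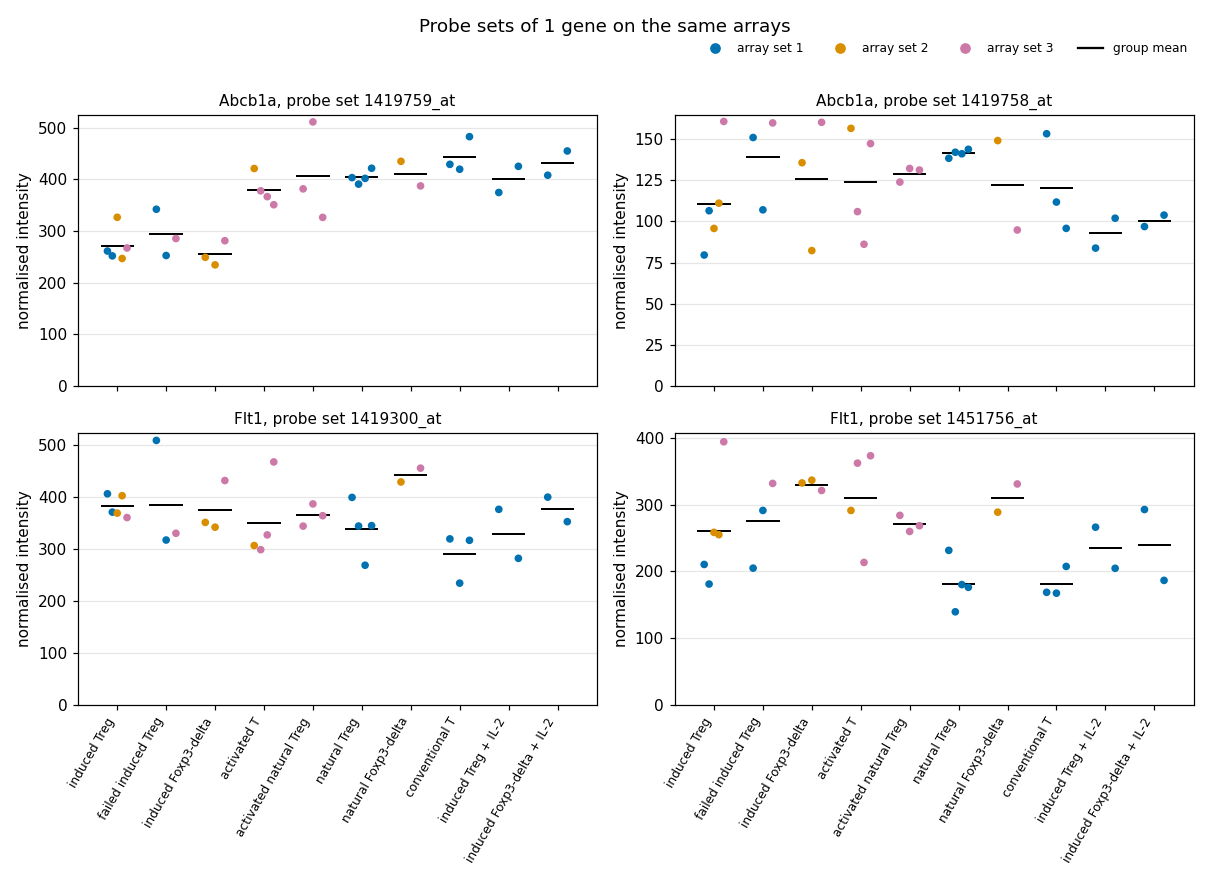
Normalised intensity (y axis, from 0) of 2 probe sets of Abcb1a (top) and 2 of Flt1 (bottom) on the 31 arrays by label group; points are arrays coloured by array set and black lines are group means. Probe set 1419759_at of Abcb1a is low in the 3 leftmost groups and 1419758_at is not, and Flt1 1451756_at is lower in array set 1.

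Pecam1, the junctional adhesion molecule that platelets and leukocytes also carry, was lower on activated T arrays than on conventional T arrays. It read 48.7, 43.6, 29.5 and 42.9 in activated T and 68.4, 69.2 and 73.4 in conventional T arrays. The difference was −0.61 (SE 0.12, 95% interval −0.85 to −0.37, 0.657 times the level, limma adjusted p = 0.00585). It was the 1 member of 10 called, where 6.75% of tested genes were (3.38% higher, 3.38% lower). Pecam1 and Tek did not overlap between these groups, and neither did 22.7% of tested genes. The groups share no array set. With the sets as a block the difference was −0.32 (limma adjusted p = 0.452, 0.0986% of tested genes called). The log2 cre/bioB spiked control ratio ran from 4.72 to 5.01 in set 1, 5.09 to 5.35 in set 2 and 5.42 to 6.30 in set 3, and helped to define the sets. Over all 31 arrays Pecam1 correlated with this ratio (r = −0.54, permutation p = 0.00185, adjusted over 40 pairs of a gene and a quality measure 0.0247, rho = −0.58 with permutation p = 0.00079, and r = −0.50 without the 2 farthest arrays). Within the sets r was −0.28, −0.24 and 0.02 (15, 6 and 10 arrays), and it was −0.03 with set means taken out, so the relation did not hold within sets. Markers of other cells also moved with this comparison: the 11 T cell genes summed to 190 to 216 on activated T and 164 to 172 on conventional T arrays. Cd3e alone read 50.4 to 64.1 against 24.3 to 27.4, and without it the other 10 summed to 140 to 153 against 140 to 145. The 6 astrocyte genes summed to 39048 to 43234 against 34054 to 37996 with 0 of 6 called by limma, and of the 6 neuron genes 1, Rbfox3, was lower (−0.70, limma adjusted p = 0.0372). Their part in the Pecam1 result was not tested.

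The other Pecam1 values went with the array sets only in part, and labels differed within set 3. Natural Treg arrays read 73.5, 68.6, 74.4 and 74.2, all in set 1, and natural Foxp3deltaEGFP+ arrays 50.3 and 43.5, in sets 2 and 3. This difference of 0.50 (SE 0.13) had a limma adjusted p of 0.101 and fell to 0.24 with the sets as a block. No member was called in that comparison, where 0.0493% of tested genes were (0.0329% higher, 0.0164% lower). Pecam1, Slc2a1 and Flt1 did not overlap between its groups, and neither did 30.6% of tested genes. Activated natural Treg arrays, all in set 3, read 78.3, 69.0 and 54.3 and overlapped with natural Treg. They lay above all 4 activated T arrays (29.5 to 48.7), of which 3 were also in set 3. The change on activation was therefore −0.61 under the conventional and −0.10 under the natural labels, but the test of that difference itself did not pass (−0.50, SE 0.17, limma adjusted p = 0.451, 0% of tested genes called). Activated natural Treg had also met TGF-beta, which activated T cells had not.

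Cdh5, the VE-cadherin of adherens junctions, was higher on activated natural Treg than on natural Treg arrays, at an intensity near the middle of the array. It read 45.9, 42.0 and 56.5 against 39.0, 27.7, 31.6 and 32.7. The difference was 0.39 (SE 0.13, 95% interval 0.12 to 0.67, 1.31-fold, limma adjusted p = 0.0443). It was the 1 member of 10 called, where 16.7% of tested genes were (8.64% higher, 8.01% lower). Cdh5 and Slc2a1 did not overlap between these groups, as 30% of tested genes did not. The groups share no array set. With the sets as a block the difference was 0.03 (limma adjusted p = 0.961, 0.362% of tested genes called). On the values as deposited it was −0.10, where the median tested gene differed by −0.52. By limma the call was lost without activated natural Treg replicate 1 (difference 0.42, adjusted p = 0.0851) or replicate 3 (0.30, adjusted p = 0.173). It was also lost without natural Treg replicate 2 (0.34, adjusted p = 0.113), replicate 3 (0.38, adjusted p = 0.0838) or replicate 4 (0.40, adjusted p = 0.0753). The Cdh5 probe set used was above the table's median of 39.8 on 13 of 31 arrays, and the second one, 1422047_at, on none (normalised mean 11.9, SD 1.06, n = 31). Cdh5 correlated with an array's deposited median over all arrays (r = −0.58, permutation p = 0.00086, adjusted 0.0172, rho = −0.68 with permutation p = 7e-05, and r = −0.63 without the 2 farthest arrays), and at −0.60, −0.21 and −0.20 within the 3 sets. The 11 T cell genes summed to 189 to 222 on activated natural Treg and 162 to 177 on natural Treg arrays, and without Cd3e (40.9 to 59.3 against 23.7 to 27.8) the other 10 to 148 to 163 against 138 to 149. The junction list summed to 9410 to 9995 against 7878 to 8864, and of the 6 neuron genes 1, Cplx1, was lower (−0.40, limma adjusted p = 0.0213). The part of these in the Cdh5 result was not tested.

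**Figure D4:**
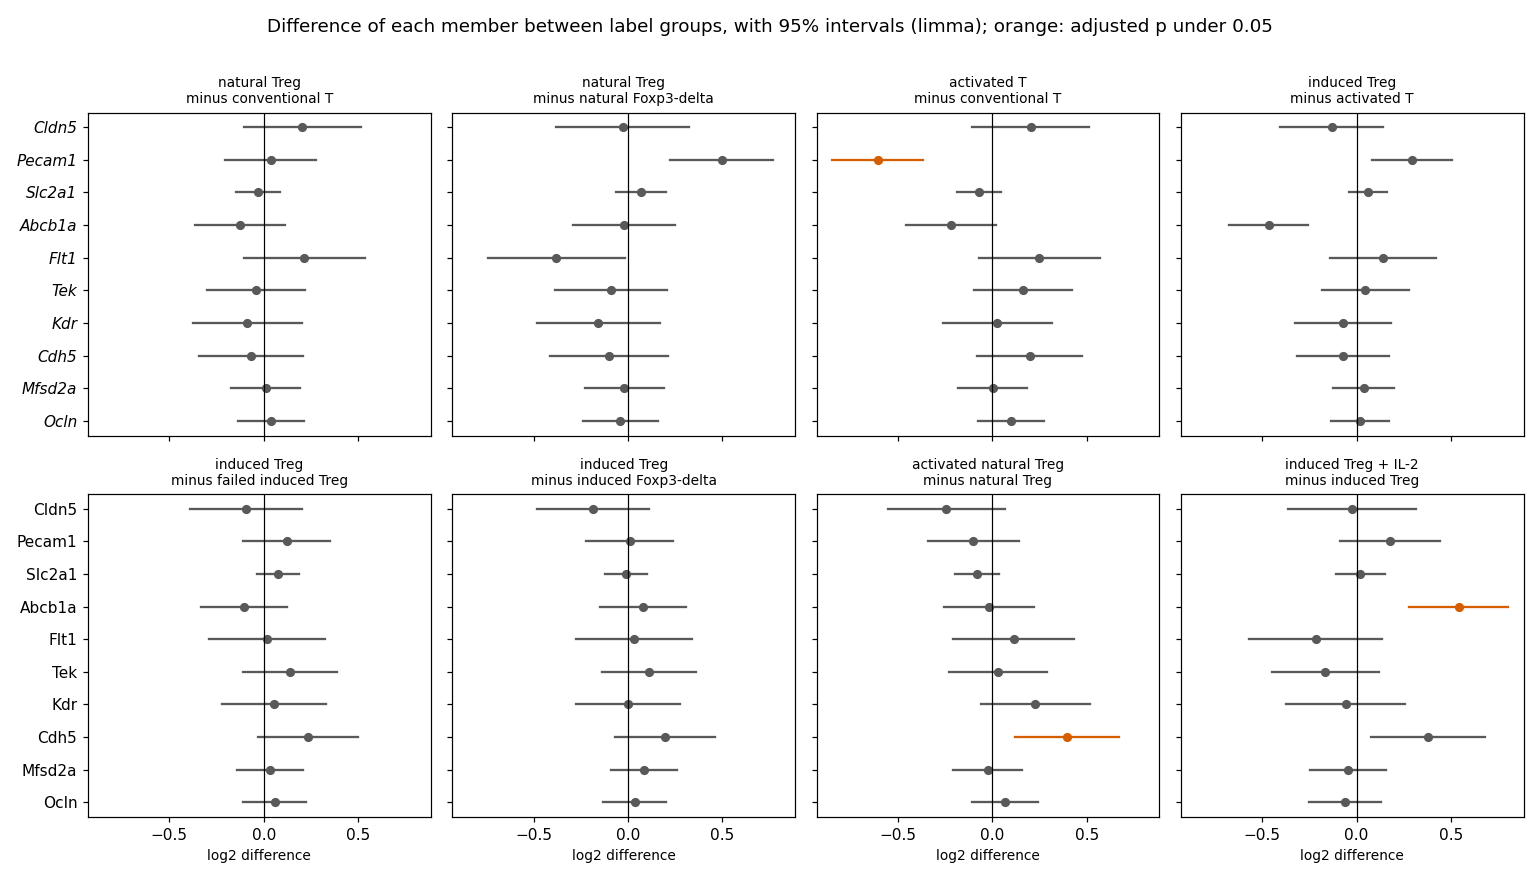
Difference of each gene in 8 comparisons between labels (x axis, log2, first label minus second; points are differences and bars are 95% intervals from limma over 31 arrays). Orange marks the 3 differences with an adjusted p under 0.05: Pecam1 at −0.61 in activated minus conventional T, Cdh5 at 0.39 in activated minus natural Treg, and Abcb1a at 0.54 in induced Treg with minus without IL-2.

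The comparisons whose labels differ in Foxp3 called none of the 10 genes by limma. The measured RNA went against these labels, so the comparisons cannot show whether Foxp3 acts on these genes. Natural Treg against conventional T arrays gave differences from −0.13 (Abcb1a) to 0.22 (Flt1), 0 with an unadjusted p under 0.05, and 0.00822% of tested genes were called. Induced against failed induced Treg gave −0.11 to 0.23, and induced Treg against induced Foxp3deltaEGFP+ gave −0.18 to 0.20, with 0 members under an unadjusted p of 0.05 and 0% of tested genes called in each. In these 3 comparisons no member separated the groups, as 6.72%, 2.53% and 1.94% of tested genes did. Natural Treg against natural Foxp3deltaEGFP+ arrays, described above, also called no member. There 2 members had an unadjusted limma p under 0.05 (Pecam1 at 0.50 and Flt1 at −0.38), as had 1959 of the 12169 tested genes. Intervals still left room for change: for Cldn5, the difference between natural Treg and conventional T arrays was 0.20 with a 95% interval of −0.11 to 0.51. The difference between the allele labels before against after IL-2 did not pass for any member either (−0.20 for Mfsd2a to 0.23 for Flt1, 0% of tested genes called). Several of these comparisons share the induced Treg, natural Treg or conventional T arrays, so their values are not independent.

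The remaining members showed narrow ranges of group means. Slc2a1 means ran from 10.68 (SD 0.04, n = 3) in activated natural Treg to 10.81 (SD 0.01, n = 2) in IL-2-cultured Foxp3deltaEGFP+ arrays, and no neighbouring groups in that order differed by more than their spread. The brightest Slc2a1 probe set correlated with the cre/bioB ratio over all arrays (r = −0.62, permutation p = 0.00019, adjusted 0.0076). Its rho was −0.53 (permutation p = 0.00269), and its r was −0.53 without the 2 farthest arrays. Within the 3 array sets its r was 0.21, 0.92 and −0.47. Probe set 1426599_a_at of the same gene had the opposite sign, with r = 0.70 over all arrays, and 1426600_at had r = −0.31. The relation therefore differed between probe sets of Slc2a1. Cldn5 group means ran from 9.25 (SD 0.25, n = 3) in activated natural Treg to 9.55 (SD 0.06, n = 3) in induced Foxp3deltaEGFP+ arrays. Kdr ran from 7.86 (SD 0.02, n = 2) in IL-2-cultured induced Treg to 8.11 (SD 0.19, n = 3) in activated natural Treg. Kdr also correlated with the cre/bioB ratio over all arrays (r = 0.52, permutation p = 0.00259, adjusted 0.0259, rho = 0.47 with permutation p = 0.00876, and r = 0.47 without the 2 farthest arrays), with r of −0.04, −0.03 and 0.27 within the sets. Tek ran from 7.38 (SD 0.16, n = 4) in natural Treg to 7.63 (SD 0.09, n = 5) in induced Treg. Ocln ran from 6.28 (SD 0.26, n = 2) in IL-2-cultured Foxp3deltaEGFP+ to 6.53 (SD 0.09, n = 5) in induced Treg. For Cldn5, Kdr and Ocln no neighbours in the order of groups differed by more than their spread. Mfsd2a was lowest on the IL-2-cultured Foxp3deltaEGFP+ arrays, at 345 and 359, and group means elsewhere lay between 421 and 446.

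The probe sets of Flt1 (VEGFR1) differed in whether they passed a comparison. The brightest, 1419300_at, ran from a group mean of 8.25 (SD 0.24, n = 3) in conventional T to 8.84 (SD 0.06, n = 2) in natural Foxp3deltaEGFP+ arrays and passed no comparison. Probe set 1451756_at was 0.70 higher on activated than on conventional T arrays (SE 0.21, limma adjusted p = 0.0436 with all 24669 probe sets tested). In that fit 6.17% of probe sets were called. The other Flt1 probe sets were also higher there, by 0.25 (1419300_at), 0.14 (1440926_at) and 0.19 (1454037_a_at), and did not pass. These groups share no array set, and over all arrays 1451756_at correlated with the cre/bioB ratio at r = 0.69. It read 291, 362, 213 and 374 against 169, 167 and 207, and its mean was 7.78 (SD 0.28, n = 15) in array set 1, 8.27 (SD 0.16, n = 6) in set 2 and 8.35 (SD 0.26, n = 10) in set 3. The other 2 Flt1 probe sets were dimmer (means 75.8 and 48.2). Among 12 within-gene pairs, 1 correlated past the threshold, and it was negative: Slc2a1 1434773_a_at with 1426599_a_at (r = −0.57, permutation p = 0.00083, adjusted 0.00996, rho = −0.53), with −0.20, −0.12 and −0.42 inside the sets. These 2 Slc2a1 probe sets correlated with the cre/bioB ratio at r = −0.62 and 0.70 over all arrays. No pair of probe sets of 1 gene rose and fell together past the threshold.

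The normalised values of the 10 genes did not vary together over the arrays. Of 45 pairs, 20 correlated positively and 25 negatively, with a median r of −0.07, and 0 passed a permutation test with adjustment over the 45 pairs, by Pearson's r or by Spearman's rho. Of these, 4 pairs had an unadjusted p under 0.05. The lowest was Pecam1 with Tek (r = −0.49, permutation p = 0.00509, adjusted 0.229, rho = −0.54, and r = −0.49 without the 2 farthest arrays), with r of −0.17, 0.19 and −0.47 within the 3 array sets. The highest was Pecam1 with Abcb1a (r = 0.38, permutation p = 0.0326, adjusted 0.388, rho = 0.48), with 0.62, −0.40 and 0.31 within the sets. Over all pairs of tested genes the median r was 0.0, with quartiles of −0.189 and 0.189. Taking out array set means left a member median of −0.03, and taking out group means one of 0.03. The VEGF and angiopoietin list had a median r of 0.04 and the other endothelial list one of 0.01. The junction list had a median r of 0.15, with 23 of 28 pairs positive, and of 0.0065 with array set means taken out. On the deposited values, which carry each array's brightness, 37 of the 45 pairs were called, all positive, with a median r of 0.61. With array medians only equalised, 15 pairs were called, 11 positive and 4 negative. On the normalised values, probe sets of 1 gene did not correlate positively past the threshold either (r of at most 0.32). The test therefore cannot tell whether the transcripts vary together.

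**Figure D5:**
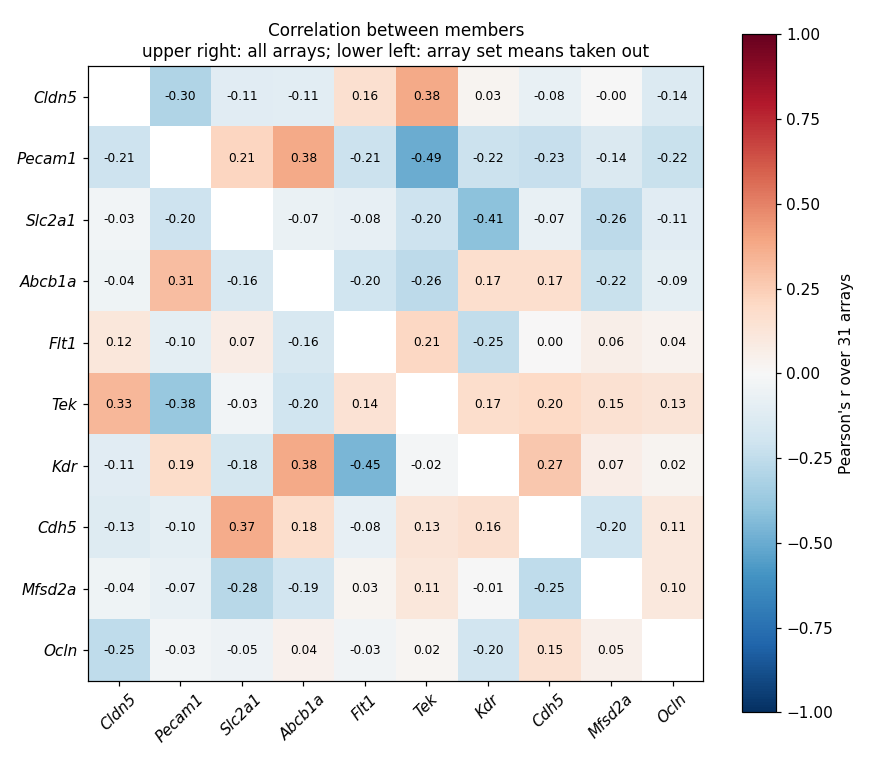
Pearson's r between the 10 genes over 31 arrays on normalised log2 values (colour and printed number). The upper right triangle uses all arrays and the lower left takes out array set means; values in the upper right run from −0.49 for Pecam1 with Tek to 0.38 for Pecam1 with Abcb1a.

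Genes most like the 10 were ranked by their correlation with the mean standardised value of the members. The nearest were Pappa (r = 0.64), Ccni (0.64) and Sowahb (0.59), followed by Erc1, Hnrnpa1, Aldoa, Dync1i1, Grin2c, Cpne4 and Ermard, down to 0.54 over 31 arrays. These are the 10 highest of the tested genes that were ranked, so the values are a description. Members were left out of the ranking. So were symbols shaped like gene models or accessions, including those that open with a letter and a digit. Single members correlated with that score between −0.09 (Pecam1) and 0.50 (Tek), although each is part of it.

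Partner genes of the same pathways gave 7 called differences between labels, all in the 2 activation comparisons. In activated against conventional T arrays, the VEGF and angiopoietin list had 1 of 10 tested genes higher and 1 lower by limma, Vegfa, the ligand of Flt1 and Kdr, at 0.72 (adjusted p = 0.0268) and Eng, a TGF-beta co-receptor of endothelial cells, at −0.43 (adjusted p = 0.0455). In the same comparison 1 of 9 mural genes was higher, Notch3 at 0.70 (adjusted p = 0.0238). In activated natural against natural Treg arrays, 2 of 10 of the VEGF and angiopoietin list were lower, Vegfb at −0.48 (adjusted p = 0.0212) and Flt4, the VEGF-C receptor, at −0.34 (adjusted p = 0.0388). Of the 12 other endothelial genes 2 were higher there, Cd34 at 0.32 (adjusted p = 0.0346) and Nostrin at 0.35 (adjusted p = 0.0409), all by limma. All tested genes were called higher and lower at 3.38% each in the first of these comparisons, and at 8.64% and 8.01% in the second. With the array sets as a block none of these 7 passed (limma adjusted p from 0.271 to 0.731). That block left 0.0986% of all tested genes called in the first comparison and 0.362% in the second. The loss is therefore not particular to these 7. In the other 6 comparisons no gene of these 3 lists passed. None of the 8 tested junction genes, 11 carriers, 10 regulators and 5 genes of peripheral endothelium passed in any of the 8 comparisons. The median difference over the 10 members was between −0.04 and 0.06 in every comparison, where that over all tested genes lay between −0.0033 and 0.0064.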

How the data were processed

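Total RNA of 31 mouse samples in 10 label groups was measured on 1-colour Affymetrix arrays. The authors deposited linear intensity values for 45101 probe sets; background correction, summarisation and scaling are not given in the sources used here. Of these, 34945 probe sets were annotated to 1 gene symbol, 932 to several, 9160 to none, and 64 were controls; only the first kind was used. Deposited intensities were quantile normalised and tested as log2(intensity + 16) with limma 3.58.1 in R 4.3.3, 1 mean per group over all 31 arrays. The brightest probe set stood for each gene, and genes above the table's median of 39.8 on at least 2 arrays were tested (12169 genes, all 10 members; 17 of their 18 probe sets). A gene was called at a Benjamini-Hochberg adjusted p under 0.05 over all tested genes. Correlations used two-sided permutation tests with 100000 resamples (Python 3.11.15, scipy 1.17.1), with the 40 gene and quality pairs, the 12 within-gene pairs and the 45 member pairs adjusted separately. Array sets came from Ward clustering of 3 quality measures. The fit was tested on simulated data with known changes. Named genes were all members, the called genes of the lists around them with the brightest or dimmest ones, and the 10 genes most like the members. The members and lists were chosen with earlier results of these data known. Alternatives were deposited values, array medians, pseudocount 1, no filter, the mean of probe sets or every probe set, array set and replicate blocks, and leaving out each array.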

Additional observations from a re-analysis of the deposited data

Results flagged for a closer look

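In 5 of 30 sets of 4 or 5 arrays of 1 label, a single array stood apart from the others by more than Dixon's 95% limit, which chance exceeds in about 1 in 20. Pecam1 in natural Treg replicate 2 was at 6.40, and the other 3 arrays lay between 6.48 and 6.50. Abcb1a in induced Treg replicate 3 was at 8.42, against 8.04 to 8.15 in the other 4. Tek in activated T replicate 4 was at 7.73, against 7.52 to 7.56. Mfsd2a was at 8.96 in induced Treg replicate 5, against 8.82 to 8.83, and at 9.06 in natural Treg replicate 2, against 8.73 to 8.77. All are normalised log2(intensity + 16) values of the brightest probe set.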

How the results depend on the processing

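Depth in the sense of read counts does not apply; the number of arrays and, for Cdh5 and Pecam1, a signal near the middle of the array limit the values. On the values as deposited, where the median tested gene differed by 0.45, −0.52 and −0.30 in the 3 comparisons, 7 of 10 members were called higher in induced Treg than activated T (59.2% of tested genes called), 6 lower in activated natural than natural Treg (57.1%) and 0 with IL-2 (0%), 5 members differed between any labels and 37 pairs correlated. There Cdh5 (−0.10), Cd34 (−0.34) and Nostrin (−0.24) reversed in activated natural against natural Treg, and Abcb1a (0.0107) in induced Treg against activated T. With array medians only, 2 members were called in natural Treg against natural Foxp3deltaEGFP+ (Pecam1 higher, Slc2a1 lower; median shift −0.13, 12.2% of tested genes called), 3 in activated against conventional T (shift 0.17, 32.4%), 0 with IL-2 (shift −0.14, 4.47%), 4 between any labels and 15 pairs. With the mean of probe sets, 2 were called in activated against conventional T (5.36% of tested genes called). That setting called 0 in activated natural against natural Treg (15.3%), where Cdh5 was not tested, 0 with IL-2 (1.22%) and 1 pair. With every probe set, 2 were called in activated against conventional T (6.17% of probe sets called). Without the filter 0 were called in activated natural against natural Treg (12.1%). With array sets as a block, 0 were called in activated against conventional T (0.0986%) and in activated natural against natural Treg (0.362%). Same-numbered arrays did not deviate together (r of deviations from −0.23 to 0.32, never over 0.1 in all pairs of a comparison), so numbers were not taken as pairs. With the replicate number as a block, 1 member was called in natural Treg against natural Foxp3deltaEGFP+ (Pecam1, 0.54, limma adjusted p = 0.0247). There 4.01% of tested genes were called, against 0.0493% in the main fit. The same block called 0 members with IL-2 (Abcb1a, 0.53, limma adjusted p = 0.0850), where 0.633% of tested genes were called. Leaving out each array gave 0 to 1 called members in induced Treg against activated T, in activated natural against natural Treg and with IL-2, 1 throughout in activated against conventional T and 0 throughout in the others. In all, 125 of 154 such counts stayed within 1.5 times. Checks of the named differences left 152 the same, made 65 weaker and 3 stronger, and reversed 4. The cause was not tested.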
